A study of Homo sapiens with 2 samples.

Results

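The 10 genes described here encode the core of the human microRNA pathway: the Argonautes AGO1 to AGO4, the nucleases DICER1 and DROSHA, the DROSHA partner DGCR8, and the scaffold proteins TNRC6A, TNRC6B and TNRC6C. They were chosen by name, and all 10 were found among the 28130 genes of the deposited tables. All 10 also passed the low-expression filter, a mean of at least 1 CPM (counts scaled by library size), which 13752 genes passed. The study measured poly-A RNA of HEK293T, a line derived from human embryonic kidney, in 2 libraries. Cells of the control library, here the GL2 library, had received the non-targeting RNA GL2, and those of the mimetic library had received a synthetic copy of tRF-3004b, a fragment of a transfer RNA. Both RNAs carried a 5′ phosphate and were delivered with a lipid reagent at 500 nM, and the cells were collected 120 h later. The cells of both groups were otherwise as cultured, with no genetic change named. With 1 library per group there is no replicate check and no p-value, so each ratio compares these 2 libraries and not the conditions.

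MicroRNAs are cut in the nucleus from long primary transcripts by DROSHA with its RNA-binding partner DGCR8, and in the cytoplasm DICER1 cuts the exported hairpin to a short duplex. An Argonaute protein keeps one strand, pairs its seed with target messenger RNAs and recruits a TNRC6 protein, which brings in the deadenylation and decapping enzymes. Fragments from the 3′ end of transfer RNAs, the class to which tRF-3004b belongs, are also known to be bound by Argonautes.

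The transfected RNAs are shown because their seeds set what could be searched for in the 10 genes. Capitals mark the seed, bases 2 to 8 counted from the 5′ end.
tRF-3004b mimetic, 22 bases: uCAAAUCUcgguggaaccucca
GL2 control, 21 bases: cGUACGCGgaauacuucgauu
hsa-miR-4762-5p (RefSeq, GRCh38.p14), 21 bases: cCAAAUCUugaucagaagccu
Among 2545 mature human miRNA entries of RefSeq, 1 had the seed of tRF-3004b, hsa-miR-4762-5p (chr22:45760532-45760552, plus strand), and 0 had the seed of the control RNA.

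Estimated counts summed to 19609933 for GL2 and to 1809193 for the mimetic, a 10.8-fold difference in depth. All 7 HEK293T-associated marker genes were detected in both libraries, with 1900 CPM summed in the GL2 library and 1446 CPM in the mimetic library. VIM made up most of this sum, with 1447 CPM in the GL2 library and 979 CPM in the mimetic library. IGF2BP1 was also lower in the mimetic library. Higher CPM was seen there for LIN28B (4186 and 462 counts), NEFM (214 and 24) and INA (81 and 17). PAX2 (19 and 2 counts) and NES (82 and 9) were slightly higher, on too few mimetic counts to give a direction. Markers of other cell types were low and higher in the mimetic library: 36.4 and 118 CPM for 9 of 9 fibroblast genes, 12.2 and 42.8 CPM for 6 of 8 epithelial genes (KRT5 and UPK3A at 0 in both), and 3.76 and 31.5 CPM for 7 of 8 blood genes detected in each library (CD3E at 0 in the GL2 library). Their part in the results below was not tested. In bulk RNA, fewer cells of a type and less RNA per cell cannot be told apart. Where nothing else is said, a log2 ratio is the mimetic library over the GL2 library on TMM-scaled counts, and its 95% interval covers counting error only.

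AGO4 and TNRC6C were more than 2-fold lower in the mimetic library, and TNRC6B was 1.86-fold lower. On scaled counts AGO1 was 1.27-fold higher and DICER1 was level. On gene TPM with 1 added, a scale described below, the log2 ratio of AGO1 was 0.04 and that of DICER1 was -0.36. Of the 10 genes, 6 had a log2 ratio below 0, against 55.5% of all tested genes. Among them, 2 were at least 2-fold lower, against 14.2% of all genes, and 0 of the 10 were at least 2-fold higher, against 12.2%. The interval lay wholly below 0 for 5 of the 10 (28.6% of all genes), wholly above 0 for 1 (23.3% of all genes), and held 0 for 4. At a mean CPM of at least 10, which TNRC6C missed, 1 of the remaining 9 was at least 2-fold lower and 0 at least 2-fold higher, against 8.55% and 6.11% of 8711 genes. Of these 8711 genes, 57.1% had a ratio below 0, 36.7% an interval wholly below 0 and 26.8% one wholly above 0. The median log2 ratio of the 10 was -0.27, and that of all tested genes was -0.11. The 10 genes lay on both sides of the median of all genes, and paralogs of one family lay apart.

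**Figure D1:**
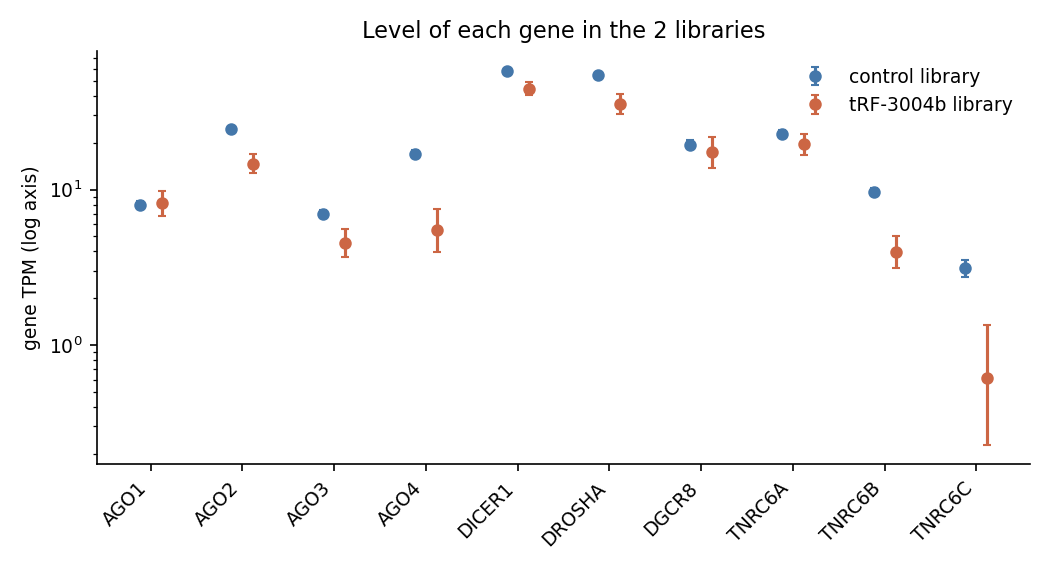
Gene TPM (transcript abundance per length, log axis) of the 10 genes, with points for the GL2 (control) and the mimetic (tRF-3004b) library and bars for the 95% Poisson interval of the counts. DICER1 and DROSHA were the most abundant of the 10 in both libraries, and TNRC6C was the least abundant in both.

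Per transcript length, DICER1 led the GL2 library at 57.6 TPM, followed by DROSHA at 54.2 TPM. AGO2 stood at 24.4 TPM and TNRC6A at 22.9 TPM, DGCR8 at 19.5 TPM and AGO4 at 17.1 TPM, and below them came TNRC6B at 9.70 TPM, AGO1 at 7.94 TPM, AGO3 at 6.96 TPM and TNRC6C at 3.11 TPM. In that order the counting intervals of DICER1 and DROSHA overlapped, as did those of AGO2 and TNRC6A, and all other neighbours lay apart. In the mimetic library the order of TPM was DICER1 (44.7), DROSHA (35.7), TNRC6A (19.7), DGCR8 (17.3), AGO2 (14.7), AGO1 (8.18), AGO4 (5.54), AGO3 (4.55), TNRC6B (3.98) and TNRC6C (0.618). AGO4 thus moved from above AGO1 to below it, although the intervals of AGO1 and AGO4 overlapped in the mimetic library. The other neighbours that overlapped there were DICER1 with DROSHA, TNRC6A with DGCR8, DGCR8 with AGO2, AGO4 with AGO3, and AGO3 with TNRC6B.

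AGO2, on chromosome 8 (140520156 to 140642313, GRCh38), encodes the human Argonaute best known for cutting its targets. It had 3177 counts (159 CPM) with GL2 and 215 counts (121 CPM) with the mimetic, a log2 ratio of -0.40 (interval -0.60 to -0.20). AGO2 held 43.3% of all Argonaute TPM in the GL2 library and 44.6% in the mimetic library, the largest share in both. The other Argonautes lie in a row on the plus strand of chromosome 1, in the order AGO4 (35807636 to 35857890), AGO1 (35869761 to 35930532) and AGO3 (35930718 to 36072500).

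AGO4, a clade member not known as a slicer, had 1090 counts (54.7 CPM) with GL2 and 40 counts (22.5 CPM) with the mimetic. AGO4 was thus 2.42-fold lower (log2 ratio -1.28, interval -1.77 to -0.82). Its share of Argonaute TPM was 30.2% with GL2 and 16.8% with the mimetic. AGO1, which lies next to it, went the other way, with 970 counts (48.6 CPM) and 110 counts (61.9 CPM), a log2 ratio of 0.35 (interval 0.05 to 0.63). AGO1 held 14.1% of Argonaute TPM in the GL2 library and 24.8% in the mimetic library. AGO3, whose start lies 186 bases past the end of AGO1, had 1223 counts (61.3 CPM) and 90 counts (50.7 CPM), a log2 ratio of -0.28 with an interval from -0.60 to 0.03. Summed over the family, Argonaute messages had 324 CPM with GL2 and 256 CPM with the mimetic, a log2 ratio of -0.34 (interval -0.48 to -0.20).

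Differences between the log2 ratios of paralogs were taken with their own counting intervals. The log2 ratio of AGO1 exceeded that of AGO4 by 1.63 (interval 1.08 to 2.20), that of AGO2 by 0.74 (interval 0.38 to 1.10) and that of AGO3 by 0.62 (interval 0.19 to 1.06). AGO4 lay below AGO2 and AGO3 as well, by differences of 0.88 (interval 0.38 to 1.42) and 1.00 (interval 0.44 to 1.59). AGO2 and AGO3 could not be separated at this depth, with a difference of -0.12 (interval -0.50 to 0.26).

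DICER1, which cuts precursor hairpins in the cytoplasm (chromosome 14, 95086228 to 95158010), was the best counted of the 10. It had 5218 counts in the GL2 library and 465 in the mimetic library, which came to 262 CPM in each. Its log2 ratio was 0.00 (interval -0.14 to 0.14). DROSHA, the nuclear nuclease (chromosome 5, 31400494 to 31532093), had 2529 counts (127 CPM) and 188 counts (106 CPM), a log2 ratio of -0.26 (interval -0.48 to -0.05). DGCR8, the RNA-binding partner of DROSHA (chromosome 22, 20080241 to 20111872), had 767 counts (38.5 CPM) and 77 counts (43.3 CPM), a log2 ratio of 0.17 (interval -0.19 to 0.51, and -0.16 on gene TPM with 1 added). The log2 ratio of DROSHA lay below that of DGCR8 by a difference of -0.43, with an interval from -0.84 to -0.01. That of DICER1 lay above that of DROSHA by 0.26, with an interval from 0.00 to 0.52 (lower bound 0.004), so both differences were close to the limit of counting error.

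The TNRC6 proteins, also called GW182 proteins, link Argonautes to deadenylation. TNRC6A (chromosome 16, 24610205 to 24826218) had 1694 counts (84.9 CPM) and 164 counts (92.3 CPM), a log2 ratio of 0.12 (interval -0.12 to 0.35). TNRC6B (chromosome 22, 40044834 to 40335808) had 1502 counts (75.3 CPM) and 72 counts (40.5 CPM), a log2 ratio of -0.89 (interval -1.26 to -0.55). TNRC6C (chromosome 17, 77957557 to 78108835) had 270 counts (13.5 CPM) and 6 counts (3.38 CPM), and was 3.94-fold lower (log2 ratio -1.98, interval -3.46 to -0.86). The interval of TNRC6A held 0 (its value was -0.21 on gene TPM with 1 added), while those of its paralogs both lay below 0. Its log2 ratio exceeded that of TNRC6B by 1.01 (interval 0.59 to 1.45) and that of TNRC6C by 2.12 (interval 0.95 to 3.60), and TNRC6B and TNRC6C could not be separated (difference 1.11, interval -0.10 to 2.62).

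The makeup of the family differed between the libraries. TNRC6A held 64.2% of TNRC6 TPM in the GL2 library and 81.0% in the mimetic library, TNRC6B 27.1% and 16.4%, and TNRC6C 8.70% and 2.55%. The family sum was 174 CPM with GL2 and 136 CPM with the mimetic, a log2 ratio of -0.35 (interval -0.55 to -0.16).

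On gene TPM with 1 added, the median of all tested genes was -0.38 instead of -0.11, and 21.8% of the genes past 2-fold were higher, instead of 46.2%. On that scale DICER1, DGCR8 and TNRC6A had negative log2 ratios, -0.36, -0.16 and -0.21, AGO1 had 0.04, and TNRC6B passed 2-fold at -1.10. There AGO2 stood at -0.70, DROSHA at -0.59 and AGO3 at -0.52, each further below 0 than on scaled counts. Relative to the median of all genes on the same scale, DGCR8 stood at 0.22, TNRC6A at 0.17, AGO1 at 0.42 and DICER1 at 0.02, and AGO4 at -1.08, TNRC6C at -0.96 and TNRC6B at -0.72. On both scales the order from highest to lowest was AGO1, AGO3, AGO2 and AGO4 among the Argonautes and TNRC6A, TNRC6B and TNRC6C among the scaffold genes. AGO4 lay below TNRC6C only on gene TPM with 1 added. There the added 1 exceeds the 0.618 TPM of TNRC6C in the mimetic library and so shrinks its ratio.

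These messages are long, and long messages as a class had lower ratios in the mimetic library. With the tested genes cut into 10 bins by length, the bin of shortest messages had a median log2 ratio of 0.62 and that of the longest -0.44. The last bin began at 7268 bases and held 7 of the 10 genes. DGCR8, DROSHA and AGO4 fell in the bins with medians of -0.24, -0.33 and -0.35. Each gene was therefore set beside the 200 genes nearest to it in transcript length, as a description.

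**Figure D2:**
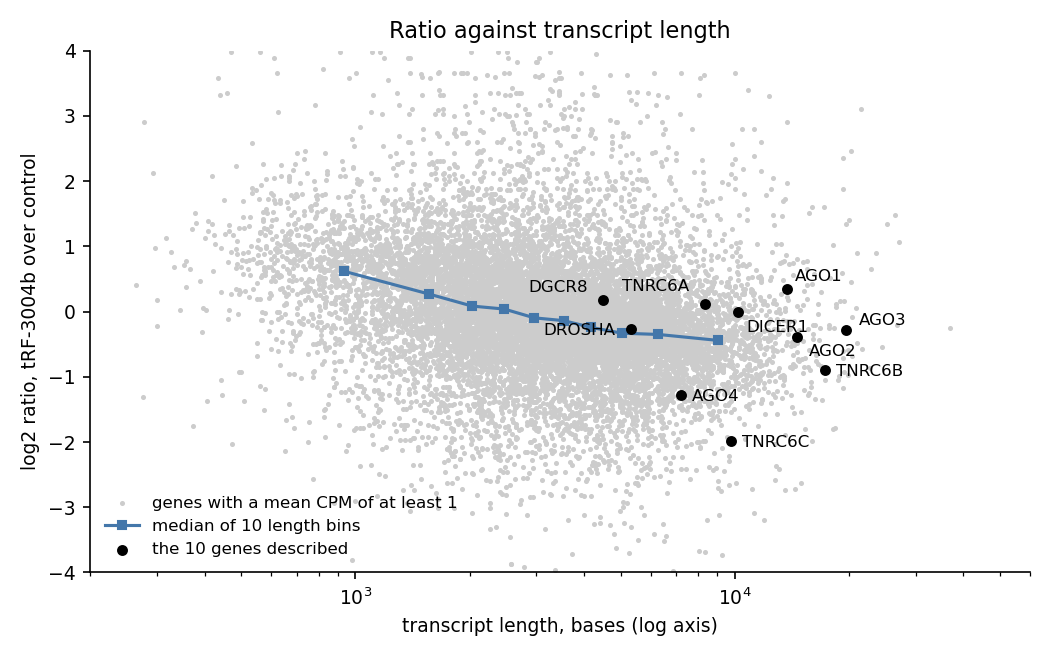
Log2 ratio of the mimetic over the GL2 library against transcript length in bases (log axis), with grey points for genes past the CPM filter, squares for the medians of 10 length bins at their median length, and black points for the 10 genes. The vertical axis is limited to the range from -4 to 4, and the 10 genes lie on both sides of the falling line of medians.

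Beside genes of like length, 7 of the 10 lay above the local median and 3 below it, where 6866 of all 13752 tested genes lay below theirs. AGO1 (13712 bases) stood 0.77 above a median of -0.42, higher than 159 of its 200 neighbours. TNRC6A (8344 bases) stood 0.56 above a median of -0.44, higher than 162 of 200. DGCR8 (4506 bases) was 0.41 above and DICER1 (10196 bases) 0.33 above their local medians, higher than 149 and 136 of 200.

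AGO2, AGO3 and DROSHA sat at the middle of their length classes. AGO2 (14576 bases) differed from its local median by 0.01 and was higher than 101 of 200 neighbours. AGO3 (19660 bases) differed by 0.07 and DROSHA (5318 bases) by 0.03, higher than 105 and 102 of 200. The ratios of AGO2 and DROSHA were below 0 and close to the median of genes of their length.

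The 3 genes below their length class were TNRC6C, AGO4 and TNRC6B. TNRC6C (9794 bases) lay at -1.57 relative to its local median, with 8 of 200 neighbours lower. AGO4 (7237 bases) lay at -0.85, with 21 of 200 lower, and 16.0% of these neighbours were at least 2-fold lower. TNRC6B (17334 bases) lay at -0.53, with 49 of 200 lower. With neighbours also held within 2-fold of the gene's mean CPM, these values were -1.43, -0.75 and -0.37.

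**Figure D3:**
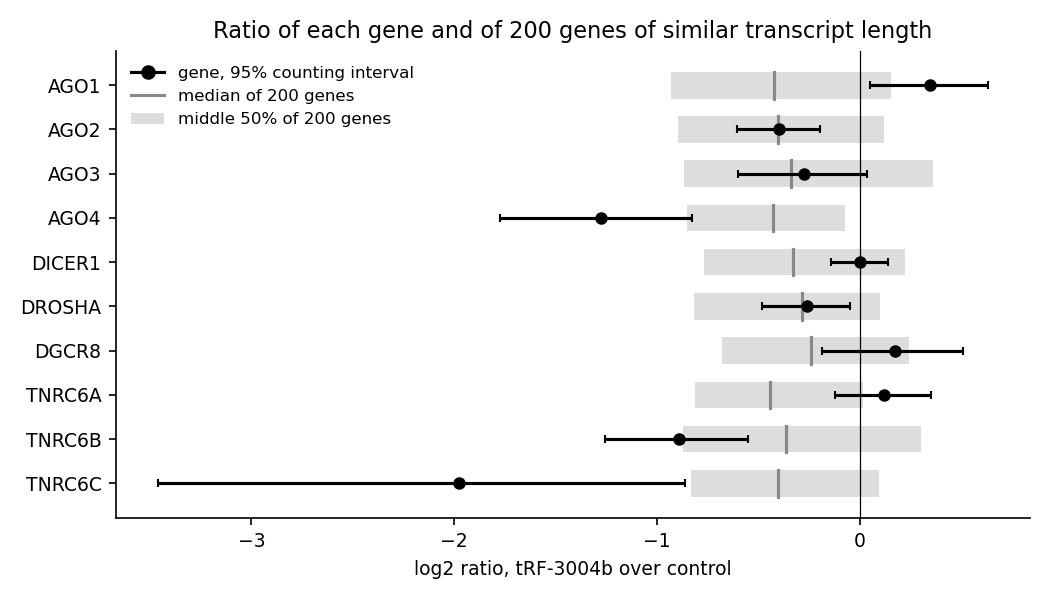
Log2 ratio of each gene (black point) with its 95% counting interval, over a grey bar for the middle 50% and a grey line for the median of the 200 genes nearest in transcript length. The intervals of AGO1, DICER1, DGCR8 and TNRC6A lie above the medians of their neighbours, and those of AGO4, TNRC6B and TNRC6C lie below theirs.

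The tables hold 26 RefSeq transcripts of the 10 genes, of which 15 reached 10% of their gene's counts in at least 1 library. For AGO1, AGO3, AGO4, DGCR8 and TNRC6A, a single transcript took nearly all counts in both libraries: NM_012199, NM_024852, NM_017629, NM_022720 and NM_001330520. The lowest of these shares was 97.2% (exact binomial interval 92.2% to 99.4%), for NM_012199 of AGO1 in the mimetic library.

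The other 5 genes had different splits in the 2 libraries. For AGO2, NM_012154 took 2596 counts, or 81.7% (interval 80.3% to 83.0%), in the GL2 library and 0 rounded counts, or 0.0794% (interval 0.00% to 1.70%), in the mimetic library. The remaining AGO2 counts were placed on NM_001164623, which is 102 bases shorter (14493 against 14595 bases). For DICER1, NM_030621 took 52.5% of the GL2 counts (interval 51.1% to 53.9%) and 100% of the mimetic counts (interval 99.2% to 100%). NM_001195573 took 36.1% of the DICER1 counts in the GL2 library and NM_001271282, just short of 10%, took 9.53%, and neither had a count in the mimetic library.

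TNRC6B had 67.9% on NM_015088 and 29.2% on the shorter NM_001024843 in the GL2 library, and 72 of 72 counts on NM_015088 in the mimetic library, where 0 counts allow NM_001024843 a share of up to 4.99%. All 270 TNRC6C counts of the GL2 library were placed on NM_001142640, and all 6 of the mimetic library on NM_018996, which is 108 bases shorter. DROSHA kept both of its transcripts, with NM_001100412 at 63.0% (interval 61.1% to 64.9%) in the GL2 library and 77.6% (interval 71.0% to 83.4%) in the mimetic library. The remainder, 37.0% and 22.4%, was on NM_013235, which is 35 bases longer.

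**Figure D4:**
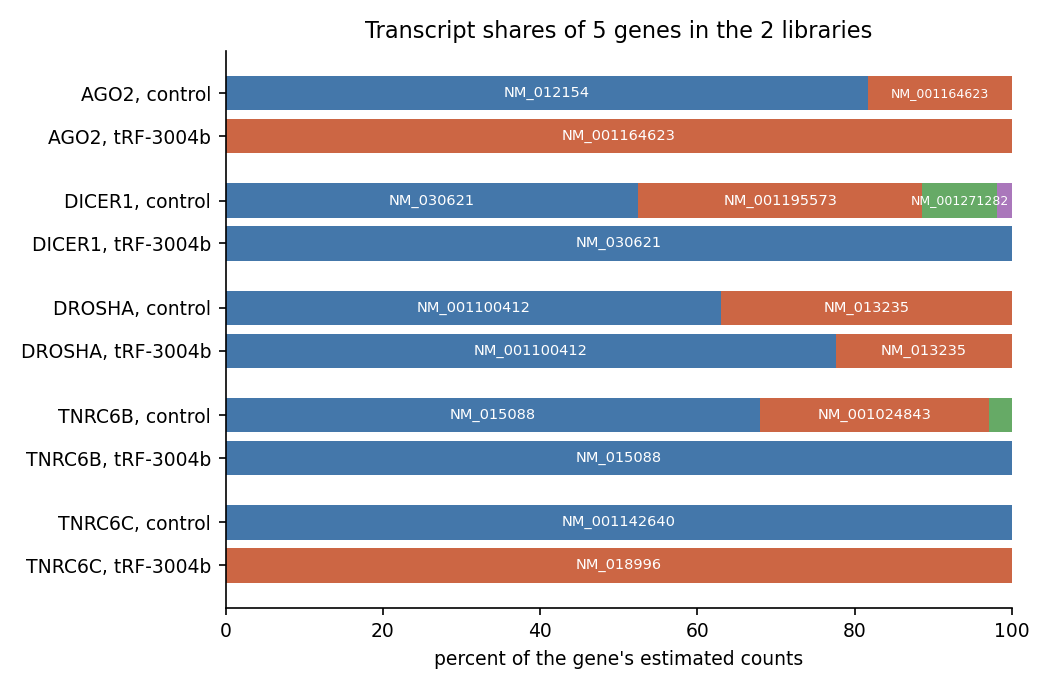
Share of each gene's estimated counts (percent) placed on its RefSeq transcripts in the GL2 (control) and the mimetic (tRF-3004b) library, for the 5 genes whose split differed, with each segment of at least 9% labelled by its transcript. AGO2 and TNRC6C had a different main transcript in each library, and DICER1 and TNRC6B had 1 transcript in the mimetic library.

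These intervals hold counting error only, and not the error of dividing reads among transcripts that share most of their sequence. Transcripts were compared by length alone, which is not the number of bases that differ. Even coverage of AGO2 would put 1.501 of the counts of the mimetic library on 102 bases, the difference in length of its transcripts, and the corresponding figure was 0.0662 for the length difference of 108 bases in TNRC6C, 7.93 for NM_001024843 of TNRC6B and 20.4 for NM_001195573 of DICER1. A different main transcript, seen for 2 of the 10 genes, was seen for 30.1% of all tested genes with 2 or more transcripts. Fewer transcripts at 10% or more were seen in the mimetic library for AGO2, DICER1 and TNRC6B, 3 of the 10 (33.2% of such genes), and more for 0 (11.1%). The main GL2 transcript was under 1% in the mimetic library for 2 of the 10, AGO2 and TNRC6C, and for 19.1% of such genes. Among genes with 70 to 470 counts in the mimetic library, a band chosen after the data were seen that holds 8 of the 10 genes but neither AGO4 nor TNRC6C, the main GL2 transcript was under 1% for 7.89% and a different transcript led for 22.4%. In that band fewer transcripts were seen for 25.2% and more for 15.5%. Of the 8 genes described that lie in the band, only AGO2 had a different main transcript, and only AGO2 had its main GL2 transcript under 1%. AGO2, DICER1 and TNRC6B, the genes with fewer transcripts, all lie in it.

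Sequence shared with other genes limits how counts can be assigned. Of the 31-base words of the paired GENCODE transcripts, 7.19% were shared with other genes for AGO3, 2.52% for DGCR8, 1.47% for AGO4 and less than 1% for each of the other 7. Words shared with another of the 10 genes numbered 38 for AGO3, 13 for AGO4, 2 for AGO1 and 0 for the rest.

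The heptamer AGATTTG, complementary to the tRF-3004b seed, occurred in the 3′ UTR of 6 of the 10 genes. AGO1 had 5 such matches, AGO2 4, TNRC6B 3, AGO3 2, and DICER1 and DGCR8 1 each. AGO4, DROSHA, TNRC6A and TNRC6C had 0. Of 12002 genes searched on the sense strand, 15.2% had a match, and of the 805 with a 3′ UTR of at least 5000 bases, 53.0% had one. Of the 10, AGO1, AGO2, AGO3 and TNRC6B had a 3′ UTR that long, and each had a match. Matches per kilobase of 3′ UTR numbered 0.231 over the 10 genes, 0.108 over all searched genes and 0.117 over the 805. The 10 genes had a median 3′ UTR of 4278 bases, against 1099 bases over all searched genes. The heptamer of the control seed, CGCGTAC, occurred in 0 of the 10 genes and in 0.225% of all searched genes.

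The matches in AGO1 and TNRC6B are shown because these were the highest and the lowest ratio among the 6 genes with a match. Capitals mark the heptamer, and the coordinates are those of the heptamer on GRCh38, plus strand.
AGO1, chr1:35920088-35920094: aatcagaaaaggactAGATTTGt
AGO1, chr1:35924132-35924138: atttgtttccctttgAGATTTGt
AGO1, chr1:35924637-35924643: tagggaggaagggacAGATTTGa
AGO1, chr1:35927934-35927940: atggtctaggagaagAGATTTGa
AGO1, chr1:35929562-35929568: cagatgctgctaccaAGATTTGg
TNRC6B, chr22:40328863-40328869: atcggttattgttttAGATTTGa
TNRC6B, chr22:40329482-40329488: aatatcacattctttAGATTTGa
TNRC6B, chr22:40333830-40333836: agctattgcttgcctAGATTTGg
AGO1, with the most matches, had the highest log2 ratio of the 10, while TNRC6B, with 3 matches, was at -0.89. AGO4 and TNRC6C, the 2 genes at least 2-fold lower, had no match in the 3′ UTR searched. DROSHA and TNRC6A, also without a match, were at -0.26 and 0.12. The median log2 ratio was -0.14 over the 6 genes with a match and -0.77 over the 4 without, which include TNRC6C with its 6 counts in the mimetic library. Over all searched genes the corresponding medians were -0.26 and -0.09, and among those with a 3′ UTR of at least 5000 bases they were -0.37 and -0.41. A match of letters is a description and not a binding site, and an effect of the matches on the ratios was not tested.

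The partners of the 10 genes were followed in 7 lists with 112 genes, of which 104 passed the filter. Genes of each list are named from its highest and lowest ratios at a mean CPM of at least 10. The counts below stand against all tested genes, of which 55.5% had a ratio below 0, 28.6% an interval wholly below 0 and 23.3% one wholly above 0. At a mean CPM of at least 10, these shares were 57.1%, 36.7% and 26.8%. The median of all tested genes was -0.11 on scaled counts and -0.38 on gene TPM with 1 added. Of 15 nuclear cofactors of DROSHA and DGCR8, 10 were higher and 5 lower, with 10 intervals above 0 and 4 below. Their median log2 ratio was 0.35 (0.01 on gene TPM with 1 added), or 0.47 relative to genes of like length. SAFB2, a nuclear scaffold protein, had 583 and 168 counts and a log2 ratio of 1.69 (interval 1.44 to 1.94), and ERH, a small partner of DGCR8, had 5349 and 1036 counts and 1.12 (interval 1.02 to 1.22). The RNA helicase DDX17 stood at -0.85 (interval -0.94 to -0.75) and the RNA-editing enzyme ADAR at -0.53 (interval -0.69 to -0.37).

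Among 18 export, dicing and loading partners, 12 were higher and 6 lower, and 10 intervals lay above 0 and 3 below. Their median log2 ratio was 0.27 (-0.07 on gene TPM with 1 added), or 0.28 relative to genes of like length. The chaperones HSPA8 and HSP90AA1, which help load Argonautes and serve many other proteins, stood highest among those with a mean CPM of at least 10, at 1.74 and 1.17. TARBP2, a partner of DICER1 below that level and named after its values were seen, had 96 and 21 counts and a log2 ratio of 1.28 (interval 0.54 to 1.99). MOV10, an Argonaute-associated helicase, had 335 and 10 counts and a log2 ratio of -1.56 (interval -2.65 to -0.68). ADARB1, an RNA-editing enzyme, was at -0.47 with an interval from -1.15 to 0.14. XPO5, the exporter of precursor hairpins, named outside the rule and after its values were seen, was at -0.15 (interval -0.32 to 0.01).

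The effectors downstream of TNRC6 were spread around the median of all genes. Of 32 deadenylation, decapping and repression genes, 20 were lower and 12 higher, 15 intervals lay below 0 and 4 above, and the median log2 ratio was -0.20 (-0.53 on gene TPM with 1 added), or -0.04 relative to genes of like length. XRN1, the exonuclease that degrades decapped messages, had 3056 and 119 counts and a log2 ratio of -1.19 (interval -1.47 to -0.93), and the deadenylase subunit PAN2 had 894 and 37 counts and -1.10 (interval -1.62 to -0.63). EIF4E2, a cap-binding repressor, stood at 1.15 (interval 0.84 to 1.45) and the decapping helicase DDX6 at 0.42 (interval 0.26 to 0.58).

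Of 14 Argonaute regulators and P body partners, 9 were lower and 5 higher, with 8 intervals below 0 and 3 above. The median log2 ratio was -0.36 (-0.67 on gene TPM with 1 added), or -0.04 relative to genes of like length. The LIM protein AJUBA had 573 and 7 counts and a log2 ratio of -2.84 (interval -4.19 to -1.81), whereas its relative WTIP had 97 and 29 counts and 1.73 (interval 1.09 to 2.36). FXR1, a relative of the fragile X protein, stood at -0.77 and ANKRD52, a subunit of the phosphatase that acts on Argonaute, at 0.46.

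Enzymes that tail, trim or degrade small RNAs had a median log2 ratio of -0.03 (-0.33 on gene TPM with 1 added). Relative to genes of like length it was 0.18. Of the 12 measured genes, 6 were higher and 6 lower. Of those at or above 10 CPM on average, the highest were USB1 at 0.57 (interval -0.03 to 1.12) and PNPT1 at 0.52, and the lowest XRN2 at -0.62 and TENT4A at -0.60. Genes of tRNA 3′ processing and tRNA fragments had a median of 0.44 (0.19 on gene TPM with 1 added), with 9 of 13 higher and 4 lower. Their median relative to genes of like length was 0.40. The La protein SSB, which binds the 3′ ends of new transfer RNA precursors, stood at 1.28 and RPP38 at 0.70, and the tRNA methyltransferase TRDMT1 at -0.52. The list also holds DNMT1, the maintenance DNA methyltransferase, which is no enzyme of tRNA and was 1 of the 4 lower genes, at -0.52.

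The PIWI genes, the germline relatives of the Argonautes, were at or near 0. PIWIL1 had 0 counts in both libraries, PIWIL2 had 12 and 0, PIWIL3 had 0 and 1, and PIWIL4 had 14 and 0. A count of 0 allows up to 3 counts, or 0.150 CPM with GL2 and 1.69 CPM with the mimetic.

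**Figure D5:**
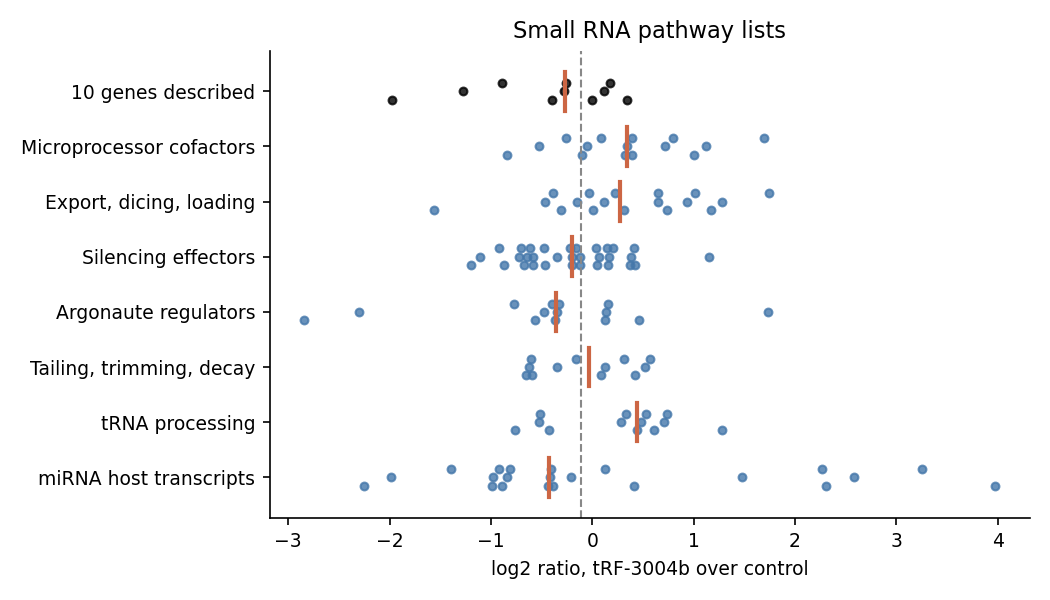
Log2 ratio of each gene past the CPM filter (points) in the 10 genes described and in 7 lists, with a bar at each list's median and a dashed line at the median of all tested genes, -0.11. The 10 genes have a median of -0.27, the nuclear cofactors of 0.35 and the tRNA processing genes of 0.44. On gene TPM with 1 added, the nuclear cofactors have a median of 0.01 and all tested genes one of -0.38. In the last list, 1 miRNA host transcript with 0 counts in the mimetic library is drawn at its bound of 3 counts.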

How the data were processed

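Poly-A RNA was sequenced from 1 control (GL2) library and 1 tRF-3004b (mimetic) library. The authors quantified transcripts with kallisto 0.46.1 on GRCh38, per the submitters' processing notes. Per the labels' protocols, libraries were directional; the strand setting, trimming and annotation release were not given in the sources used here. The deposited estimated counts are those kallisto assigned to 70866 RefSeq transcripts for the authors, not normalized. The deposited TPM divide them by effective length, as kallisto does, and keep no depth.

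Transcripts were named with a RefSeq table on GRCh38.p14 (70245) and GENCODE 29 (309), and 312 stayed unnamed (0.0609% and 0.0617% of counts) and were left out. Estimated counts were summed per gene, rounded, and scaled with TMM (edgeR 4.0.16, R 4.3.3), 0.5 counts being added after both libraries were brought to one size. Intervals are exact conditional Clopper-Pearson 95% intervals of the counts; differences between 2 genes have the exact conditional interval of their odds ratio, and shares an exact binomial one. Reads lack molecular identifiers, so all cover counting error only. Transcript length is the TPM-weighted mean in the GL2 library. Searches used the GENCODE 29 transcript paired with the most counted NM transcript. The interval code was tested on simulated data. Single libraries leave no spread to test against, so no test was run.

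The genes and lists were chosen with earlier results of these data known. The text names all 10 genes, transcripts with at least 10% of a gene's counts (and NM_001271282, just below), the 2 highest and 2 lowest genes of each list at a mean CPM of at least 10, all PIWI genes, and neighbouring genes. Tried besides were scaling by total counts or by size factors of DESeq2 1.42.0, gene TPM with 1 added, a pseudocount of 5, NM transcripts only, mean CPM minimums of 5 and 10 or none, and other length neighbours. Python 3.11.15, scipy 1.17.1 and matplotlib 3.10.9 were used.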

Additional observations from a re-analysis of the deposited data

How the results depend on the processing

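The median of the 10 genes stayed negative under the 5 alternatives of scaling, pseudocount and transcripts, between -0.55 (gene TPM with 1 added) and -0.24 (DESeq2 size factors). AGO4, TNRC6B, TNRC6C, AGO2, AGO3 and DROSHA were below 0 and AGO1 above 0 under each of them, whereas DGCR8 and TNRC6A were below 0 with gene TPM and DICER1 with gene TPM (-0.36) and total counts (-0.05). Intervals wholly below 0 numbered 6 of 10 with total counts instead of 5. With total counts the median of all tested genes was lower too, -0.16 instead of -0.11. The share of all genes with such an interval is not given for that scaling, so the count of 6 cannot be set beside it. AGO4 ranged from -1.47 to -1.25 and TNRC6C from -2.03 to -1.34, the last value being that on gene TPM with 1 added, which shrinks the ratio of so low a gene. Beside genes of like length, the sign changed only for AGO2 (-0.00424 by its most abundant transcript's length) and DROSHA (-0.03 with neighbours of like expression), both near 0. Without a filter beyond 1 count, 25.9% of all genes were at least 2-fold lower, and 8.55% at a mean CPM of at least 10; at least 2-fold higher were 6.87% at a mean CPM of at least 5 and 6.11% at 10. Depth limited TNRC6C most, with 6 counts in the mimetic library. No alternative could leave out a library.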

Other observations

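Transcripts that host miRNAs, which DROSHA cuts in the nucleus, had ratios on both sides of 0, but the filter shaped that balance. Of 70 genes named as miRNA hosts (MIR with the suffix HG), 22 passed the filter, 14 lower and 8 higher, with 7 intervals below 0 and 5 above, where 55.5% of all tested genes were lower, 28.6% had an interval below 0 and 23.3% one above. The 5 above 0, named after their values were seen, included MIR100HG (15 and 14 counts) and MIR22HG (22 and 10). The others were MIR3667HG (8 and 5), MIR4500HG (10 and 5) and MIR670HG (2 and 5). All but MIR22HG lay below 1 CPM in the GL2 library. They passed the filter only through the mimetic library, where they were high, so these counts give no direction for the hosts. The median log2 ratio was -0.43, or -0.42 with MIR503HG, which had 44 and 0 counts, at its bound of 3 counts, and -0.70 on gene TPM with 1 added. Relative to genes of like length the median was -0.33. The best counted, MIR17HG, host of the miR-17 cluster and named after its values were seen, had 1862 and 124 counts and a log2 ratio of -0.42 (interval -0.69 to -0.16). Among hosts with a mean CPM of at least 10, MIR550A3HG was at -0.89, MIR4453HG at -0.84, MIR34AHG at -0.41 (interval -1.15 to 0.24) and MIR924HG at 0.13 (interval -0.51 to 0.71).

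Genes next to the 10 described had ratios of their own. TRMT2A, a transfer RNA methyltransferase on the minus strand of chromosome 22 (20111875 to 20117226), lies 3 bases past the end of DGCR8 and converges on it. It had 216 and 8 counts and a log2 ratio of -1.25 (interval -2.50 to -0.26), against 0.17 for DGCR8. C5orf22, whose start lies 208 bases from that of DROSHA on the other strand, had 1540 and 146 counts and a log2 ratio of 0.09 (interval -0.17 to 0.34). DICER1-AS1, antisense to the start of DICER1, had 66 and 2 counts and a log2 ratio of -1.49 (interval -4.63 to 0.35). TMC6, which overlaps the end of TNRC6C on the other strand, had 12 and 0 counts. LINC01567, which overlaps TNRC6A on the other strand, had 9 and 3 counts and a log2 ratio of 1.73 (interval -0.62 to 3.91). Without the strand setting of the counting, reads of overlapping antisense genes cannot be told apart.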
